A study of Rattus norvegicus with 40 samples.

Results

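The genes that carry and control the HIF response to low oxygen were followed at the RNA level in rat cerebral cortex after hypoxic preconditioning. The set held 8 genes, namely the subunits Hif1a, Epas1 and Arnt, the prolyl hydroxylases Egln1, Egln2 and Egln3, the asparaginyl hydroxylase Hif1an and the ubiquitin ligase component Vhl. A gene was read from the Affymetrix probe sets (groups of short probes for 1 transcript) that were annotated to it alone. Of the 8 genes, 7 had such a probe set, 9 in all among the 31042 on the array. A minimum mean intensity of 31.9 left 18625 probe sets of 10304 named genes, and among them 7 probe sets of 6 of the 8 genes. Hif1an had no probe set of its own in the annotation used here, and Arnt lay just below the minimum.

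HIF is a pair of proteins, an alpha subunit (Hif1a or Epas1, which is also called HIF-2 alpha) and the beta subunit Arnt, that binds DNA and switches on genes of glycolysis, glucose uptake, vessel growth and iron handling. While oxygen is present, the Egln enzymes hydroxylate prolines of the alpha subunits, Vhl binds the hydroxylated protein and it is degraded, and Hif1an hydroxylates an asparagine that keeps coactivators away. Control therefore acts largely on the protein, which arrays do not see. Egln1 and Egln3 are themselves known targets of HIF, a feedback in which the response raises the enzymes that end it, while Hif1a, Egln2 and Vhl are not usually counted among its targets.

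Total RNA was hybridised to 40 1-colour arrays, 20 from rats labelled as having had hypoxic preconditioning and 20 from rats labelled as sham, incubated in normal oxygen. In preconditioning, brief or mild hypoxia makes the brain better able to withstand a later insult. Sample numbers 1 to 20 in each group came in 4 runs, 1 to 5, 6 to 10, 11 to 15 and 16 to 20, each with 5 preconditioned and 5 sham arrays, and the labels do not say what the runs stand for. The oxygen level, the length of exposure, the strain and age of the rats, and whether each sample was a separate animal are not stated in the labels. The p-values therefore measure only how far these samples scatter, part of which may be technical.

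Values are deposited linear intensities, floored at 16 and put on the log2 scale, and a difference is preconditioned minus sham unless another pair is named. Tests were limma's moderated tests on all 18625 probe sets, and a gene is said to have risen or fallen where the adjusted p was under 0.05. Preconditioned arrays 5 and 6 stood apart, with log2 medians of 5.59 and 5.53, against 5.71 to 5.82 on the other arrays. Their scores on the second principal component were 35.6 and 34.3, and the rest spanned -12.7 to 12.2. As a check of the label, 9 of 10 neuronal markers listed had a usable probe set. Of all 31042 probe sets 18625 were usable, so this count alone neither shows brain tissue nor singles out cortex. The mean log2 level of the 9 neuronal markers lay between 10.27 and 10.41 on the preconditioned arrays of numbers 1 to 5. On the sham arrays of that run it lay between 10.19 and 10.32. Markers of striatum, hippocampus and thalamus also had usable probe sets, 7 of 7, with mean log2 levels of 6.84 to 7.02 on the preconditioned and 6.69 to 6.93 on the sham arrays of that run.

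Egln1 and Egln3, the feedback pair, were the members that rose after preconditioning, and Hif1a is a subunit they act on. The sequences just before their transcription starts are shown because HIF is known to bind short DNA elements with the core ACGTG or GCGTG. Each line gives 250 bases before to 10 bases after the RefSeq start in assembly GRCr8, read along the gene, and capitals mark either core on either strand. Egln1 lies at chr19:69804672-69804931 on the minus strand, Egln3 at chr6:77411006-77411265 on the minus strand, and Hif1a at chr6:98359648-98359907 on the plus strand.
Egln1: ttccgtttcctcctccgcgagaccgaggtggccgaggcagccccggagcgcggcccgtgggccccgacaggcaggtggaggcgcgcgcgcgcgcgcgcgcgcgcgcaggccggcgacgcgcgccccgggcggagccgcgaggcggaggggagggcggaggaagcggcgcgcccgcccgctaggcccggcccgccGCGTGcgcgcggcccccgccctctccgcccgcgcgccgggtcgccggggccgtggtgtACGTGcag
Egln3: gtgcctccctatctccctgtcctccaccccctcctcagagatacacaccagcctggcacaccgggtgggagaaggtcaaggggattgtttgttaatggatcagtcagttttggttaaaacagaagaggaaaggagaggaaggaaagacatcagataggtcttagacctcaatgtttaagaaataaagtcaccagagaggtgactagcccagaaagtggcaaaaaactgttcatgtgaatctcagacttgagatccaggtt
Hif1a: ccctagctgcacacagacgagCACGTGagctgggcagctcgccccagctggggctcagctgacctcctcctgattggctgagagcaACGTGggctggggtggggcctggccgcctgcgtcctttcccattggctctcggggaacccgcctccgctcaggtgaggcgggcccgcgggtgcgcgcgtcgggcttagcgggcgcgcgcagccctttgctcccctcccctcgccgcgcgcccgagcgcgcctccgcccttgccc

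In Egln1 a GCGTG began 56 bases before the start and an ACGTG began at base 3 of the transcript. In Hif1a the motif ACGTG was found 3 times, a pair that overlaps on opposite strands within CACGTG 229 and 228 bases before the start, and once 164 bases before it. Egln3, the member with the largest rise in numbers 1 to 5, had neither motif in this window. All 8 members had a window in the RefSeq table, 3 of them with a match (Hif1a, Egln1 and Arnt, where GCGTG began 42 bases before the start) and 5 without. Of 33469 such windows for 27457 genes, 37.8% held at least 1 match, 17.2% an ACGTG and 26.7% a GCGTG. The Egln1 window was 84.2% G and C and that of Egln3 46.9%, and of the 318 windows above 80% a match was present in 51.6%. A match describes these letters only, and an absence says nothing about sites elsewhere in the gene.

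Over all 40 arrays the members differed in probe brightness by an order of magnitude, although levels of different probe sets cannot be ranked as amounts of RNA. Hif1a spanned 872 to 1321, with a median intensity of 1060.3, and the brighter Epas1 probe set 406 to 708, with a median of 510.4. Egln2, the constitutive prolyl hydroxylase also called PHD1, spanned 294 to 454 (median 348), and Vhl spanned 264 to 383 (median 311). Egln1, or PHD2, the main enzyme that sets HIF levels in normal oxygen, spanned 192 to 312 (median 223). Egln3, or PHD3, spanned 78.1 to 173 (median 109.7). A second probe set of Epas1 was dimmer, at 44.2 to 106. The Arnt probe set was dim, between 18.6 and 58.0, and a second Egln1 probe set lay between 1.77 and 6.68, below the floor on all 40 arrays, so only the brighter one measured Egln1. The spread between arrays of the same group and run was smallest for Hif1a (log2 SD 0.10) and Vhl (0.11), followed by Egln1 (0.12), Egln2 (0.14), Egln3 (0.15) and Epas1 (0.16 and 0.29 for its probe sets).

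In numbers 1 to 5 both feedback enzymes rose. The Egln1 intensities were 312.0, 296.7, 287.6, 239.6 and 302.5 on the preconditioned arrays, against 223.3, 245.1, 212.6, 202.2 and 229.5 on the sham arrays. Thus 4 of 5 preconditioned arrays lay above every sham array, and array 4 lay just under the highest of them. The rise was 1.29-fold, or 0.37 ± 0.08 on the log2 scale (SE, 5 arrays per group), with a 95% interval of 0.21 to 0.53 and an adjusted p of 0.0057 in limma.

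Egln3 had 152.4, 140.7, 149.5, 173.1 and 116.1 on the preconditioned arrays of the same run, against 99.5, 78.1, 104.9, 108.8 and 122.2 on the sham arrays. Again 4 of 5 preconditioned arrays lay above every sham array, and the exception was array 5, which stands apart in general. Egln3 rose 1.43-fold, or by 0.51 ± 0.10 on the log2 scale (SE, 5 arrays per group), with a 95% interval of 0.31 to 0.71 and an adjusted p of 0.0014 in limma. In bulk tissue, a change in the number of cells of a type and a change in RNA per cell cannot be told apart. Among the 6 measured members 2 rose and 0 fell, while 1.23% of all probe sets were called higher and 1.15% lower. Once preconditioned arrays 5 and 6 were left out, the rise was 0.35 for Egln1 (limma adjusted p = 0.020) and 0.59 for Egln3 (0.00015). Both calls held with any 1 array removed, where the adjusted p reached 0.029 for Egln1 and 0.012 for Egln3 at most. Both ended in a fit of these 10 arrays alone (limma adjusted p of 0.051 and 0.074).

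In numbers 6 to 10 Egln1 rose and Egln3 was not called. Egln1 had 264.0, 226.9, 260.6, 256.8 and 264.6 on the preconditioned arrays, against 214.3, 227.4, 195.0, 192.4 and 201.0 on the sham arrays. Preconditioned array 7 lay just under sham array 7, and the other 4 lay above every sham array. The rise was 1.24-fold, or 0.31 ± 0.08 on the log2 scale (SE, 5 arrays per group), with an adjusted p of 0.029 in limma. Without preconditioned arrays 5 and 6 it was 0.29 and was not called (limma adjusted p = 0.071). Of the single arrays, leaving out preconditioned array 6, 9 or 10 or sham array 8, 9 or 10 also ended the call, with differences of 0.28 or more and adjusted p of up to 0.081.

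Egln3 had 105.1, 115.3, 128.3, 110.7 and 134.2 on the preconditioned arrays of this run, against 97.6, 109.5, 116.6, 109.9 and 116.8 on the sham arrays. The groups overlapped and the difference was 0.11 ± 0.10 (limma adjusted p = 0.63), with a 95% interval of -0.09 to 0.31. Of the 6 measured members 1 rose and 0 fell, against 1.1% of all probe sets called higher and 1.12% called lower.

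**Figure D1:**
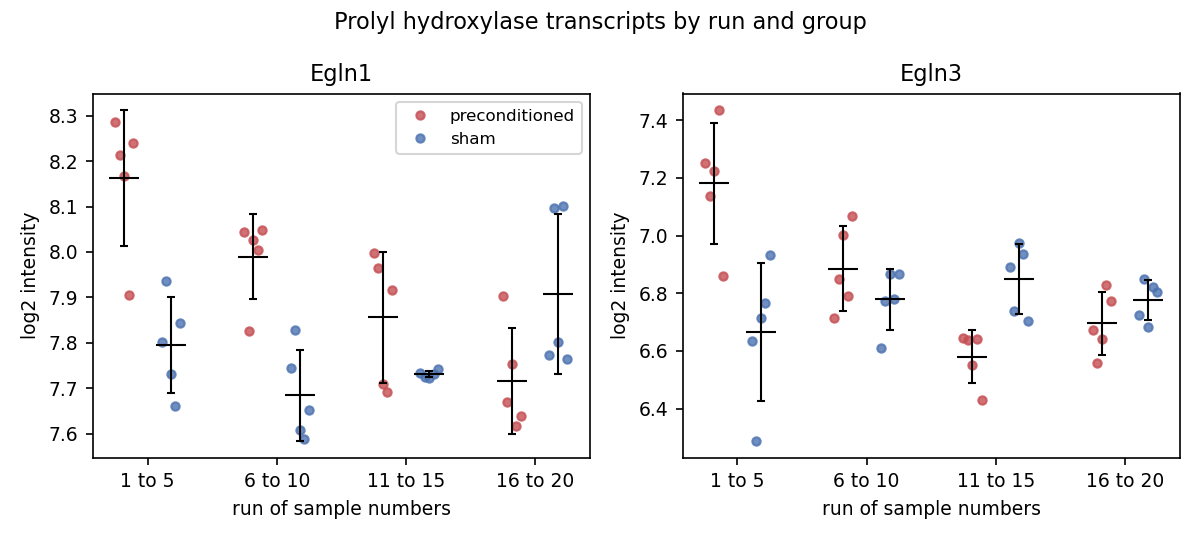
Log2 intensity of Egln1 and Egln3 by run of sample numbers. Points are arrays, 5 preconditioned (red, left) and 5 sham (blue, right) in each run, horizontal lines are means and bars are 1 SD. For both genes the mean of the preconditioned arrays of numbers 1 to 5 is the highest of the 8 means, and in numbers 11 to 15 all 5 preconditioned arrays lie below the sham arrays for Egln3.

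In the later runs no member was called. In numbers 11 to 15 the Egln1 intensities were 255.4, 249.97, 209.3, 206.8 and 241.4 on the preconditioned arrays, against 212.9, 211.6, 211.3, 212.6 and 214.0 on the sham arrays. The sham arrays of this run were almost equal, with a log2 SD of 0.01, while the preconditioned arrays lay on both sides of them. The difference was 0.12 ± 0.08 (limma adjusted p = 0.65).

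Egln3 had 100.1, 99.6, 93.7, 99.8 and 86.2 on the preconditioned arrays of numbers 11 to 15, against 118.8, 106.9, 125.8, 122.4 and 104.2 on the sham arrays. All 5 preconditioned arrays lay below all 5 sham arrays, the opposite side from numbers 1 to 5. No share of all probe sets is given for such a gap. The difference of -0.27 ± 0.10 did not pass (limma adjusted p = 0.35, unadjusted 0.0097), and its 95% interval was -0.47 to -0.07. Of the 6 members 0 were called by limma, with 2 at an unadjusted p under 0.05 (Egln3 and Hif1a). Of all 18625 probe sets 0.0698% were called, with 1835 at an unadjusted p under 0.05.

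In numbers 16 to 20 the Egln1 intensities were 239.4, 203.6, 215.8, 196.1 and 199.4 on the preconditioned arrays, against 218.7, 273.8, 223.2, 274.5 and 217.3 on the sham arrays. Sham arrays 17 and 19 were high, and 4 of the preconditioned arrays lay below every sham array. The difference was -0.19 ± 0.08 (limma adjusted p = 0.93, unadjusted 0.021). Egln3 had 102.0, 94.1, 99.9, 113.8 and 109.5 on the preconditioned arrays, against 105.7, 115.4, 102.7, 113.0 and 111.9 on the sham arrays, with a difference of -0.08 ± 0.10 (limma adjusted p = 0.98). In this run limma called 0 of the 6 members, with 1 (Egln1) at an unadjusted p under 0.05, and 0% of all probe sets, with 952 at an unadjusted p under 0.05.

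The effect of preconditioning differed between the runs for both feedback enzymes and was not shown to differ for the others. In the F-test of the interaction over the 4 runs, the limma adjusted p was 0.013 for Egln1 and 0.0050 for Egln3, so that 2 of 6 members passed, against 0.762% of all probe sets. It was 0.56 for Hif1a, 0.99 for Epas1, 0.85 for Egln2 and 0.70 for Vhl. Removal of any 1 array kept both calls, with adjusted p no higher than 0.040 for Egln1 and 0.017 for Egln3, and without preconditioned arrays 5 and 6 they were 0.025 and 0.00053.

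Contrasts of the effect between neighbouring runs were made within each gene, and Egln1 was not tested against Egln3. The effect on Egln3 was 0.41 ± 0.14 smaller in numbers 6 to 10 than in 1 to 5 (a difference of -0.41, limma adjusted p = 0.58, unadjusted 0.0057), and that on Egln1 differed by -0.06 ± 0.11 (0.98). Set against numbers 6 to 10, the effect on Egln3 in numbers 11 to 15 differed by -0.37 ± 0.14 (limma adjusted p = 0.32) and that on Egln1 by -0.18 ± 0.11 (0.62). For numbers 16 to 20 against 11 to 15 the values were 0.19 ± 0.14 for Egln3 (0.68) and -0.32 ± 0.11 for Egln1 (0.35). For these 3 contrasts of neighbouring runs limma called 0 of the 6 members, against 0.0537%, 0.279% and 0.0161% of all probe sets called. At an unadjusted p under 0.05 there were 1, 1 and 2 of 6 members, against 1125, 1816 and 1829 of 18625 probe sets. Over all 40 arrays Egln1 differed by 0.15 ± 0.05 (limma adjusted p = 0.16, unadjusted 0.0077) and Egln3 by 0.07 ± 0.07 (0.68). Limma called 0 of 6 members over all arrays, against 0.891% of all probe sets called. At an unadjusted p under 0.05 there was 1 of 6 members, against 2781 of 18625 probe sets. Without numbers 16 to 20, the run where its difference was negative, the difference of Egln1 was 0.27 and passed (limma adjusted p = 0.0051). That was the only 1 of 15 other settings in which it passed. Across them the difference went down to 0.08 and the limma adjusted p up to 0.75.

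Among the preconditioned arrays alone, both feedback enzymes were lower in numbers 16 to 20 than in numbers 1 to 5. Egln1 fell by 0.45 on the log2 scale (SE 0.08, limma adjusted p = 0.00014) and Egln3 by 0.49 (SE 0.10, 0.00061). For each gene the arrays of the 2 runs did not overlap. For Egln1 this held only just, with at most 239.4 in the last run and at least 239.6 in the first. Hif1a, which was not called, did not overlap either. No share of all probe sets is given for such gaps, so they do not set these genes apart. Limma called 2 of the 6 members, both lower, against 9.58% of all probe sets higher and 8.03% lower. The same contrast among the sham arrays was 0.11 ± 0.08 for Egln1 (limma adjusted p = 0.36) and 0.11 ± 0.10 for Egln3 (0.50). Cell type markers differed between the same preconditioned runs. Higher in numbers 16 to 20 were 4 of 6 markers of microglia and macrophages, 3 of 8 of astrocytes and 2 of 9 of neurons, with 0 lower. Oligodendrocyte markers had 3 of 6 higher and 1 lower, those of endothelial and mural cells had 2 higher and 2 lower among 11, and choroid plexus markers 0 of 3 called by limma, with 2 at an unadjusted p under 0.05. Both measured blood markers, Hbb and Alas2, were lower, as were 2 of 7 markers of striatum, hippocampus and thalamus. The mean log2 level of the microglia and macrophage markers spanned 6.46 to 7.06 in the last preconditioned run, against 6.09 to 6.26 in the first, and that of the blood markers 9.34 to 9.95, against 9.78 to 10.31. The part of these markers in the lower Egln1 and Egln3 was not tested.

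The other measured members, set beside the feedback pair, were not called for preconditioning in any run, and the gap between the 2 sets of genes was not tested. Hif1a had 1078.9, 1096.3, 1116.4, 1091.5 and 1164.4 on the preconditioned arrays of numbers 1 to 5, against 1193.2, 1155.2, 1174.3, 1182.6 and 944.5 on the sham arrays. The preconditioned arrays sat within the range of the sham arrays, of which array 5 was far below the rest. The log2 difference was -0.02 ± 0.07 (SE, 5 arrays per group, adjusted p = 0.91 in limma), with a 95% interval of -0.15 to 0.11. That interval lies wholly below the rise of 0.37 in Egln1, a comparison of values with no test between genes.

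In numbers 6 to 10 Hif1a had 1320.6, 1052.4, 1015.1, 1134.8 and 988.5 on the preconditioned arrays, against 1054.4, 1104.6, 1153.8, 1155.1 and 1109.1 on the sham arrays. The highest value of all 40 arrays belonged to preconditioned array 6, which stands apart. The difference was -0.02 ± 0.07 (limma adjusted p = 0.89, 95% interval -0.16 to 0.11).

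In numbers 11 to 15 Hif1a had 993.5, 871.6, 1035.9, 1023.0 and 990.3 on the preconditioned arrays, against 1168.0, 1047.3, 1100.9, 1110.1 and 1060.2 on the sham arrays. All 5 preconditioned arrays lay below all sham arrays, a gap for which no share of all probe sets is given. The difference of -0.16 ± 0.07 was not called (limma adjusted p = 0.39, unadjusted 0.019). In numbers 16 to 20 it had 1075.4, 953.7, 965.3, 990.9 and 1060.4 on the preconditioned arrays, against 1039.3, 922.2, 1004.4, 1010.8 and 912.0 on the sham arrays, and the groups overlapped (0.05 ± 0.07, limma adjusted p = 0.98).

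Epas1, the alpha subunit found mainly in endothelial and glial cells, had positive differences in all 4 runs, none of them called. Its brighter probe set had, in numbers 1 to 5, 475.9, 520.1, 577.1, 559.5 and 445.9 on the preconditioned arrays, against 461.0, 453.1, 481.4, 488.6 and 464.8 on the sham arrays. The 3 highest preconditioned arrays lay above every sham array and array 5 below them all. The brighter probe set differed by 0.13 ± 0.10, 0.09 ± 0.10, 0.14 ± 0.10 and 0.08 ± 0.10 from the first to the last run (limma adjusted p of 0.54, 0.68, 0.68 and 0.98). The upper ends of the 95% intervals were 0.33, 0.29, 0.34 and 0.28, so rises of up to that size lay within the intervals. The dimmer probe set differed by 0.34, 0.12, 0.22 and 0.14, with standard errors of 0.18, and was not called either (lowest limma adjusted p = 0.32).

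Egln2, the prolyl hydroxylase that is not a HIF target in the usual lists, differed by -0.02, 0.02, 0.09 and -0.07 in the 4 runs, each ± 0.09 (limma adjusted p of 0.80 or more). It spanned, in numbers 1 to 5, 306.0 to 412.7 on the preconditioned arrays, against 310.2 to 403.0 on the sham arrays, nearly the same range. Its 95% interval there, -0.19 to 0.16, lies below the differences of both Egln1 and Egln3. Vhl, which recognises hydroxylated HIF, differed by 0.09, 0.03, -0.04 and 0.13 in the 4 runs, each ± 0.07 (limma adjusted p of 0.56 or more). It spanned, in numbers 1 to 5, 309.1 to 377.5 on the preconditioned arrays, against 306.9 to 323.5 on the sham arrays, and the groups overlapped in every run. The 95% interval of Vhl in numbers 1 to 5, -0.05 to 0.24, overlapped that of Egln1, 0.21 to 0.53.

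Arnt could be read only without the filter, at intensities between 18.6 and 58.0 that are close to the floor of 16. Fitted over all 31042 probe sets, it differed by -0.11, 0.28, -0.15 and 0.51 in the 4 runs, each ± 0.20 (limma adjusted p of 0.60 or more). The value of 0.51 in numbers 16 to 20 rests on 35.0, 32.9, 32.4, 26.6 and 35.3 on the preconditioned arrays, against 21.4, 24.6, 18.6, 28.0 and 21.6 on the sham arrays.

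**Figure D2:**
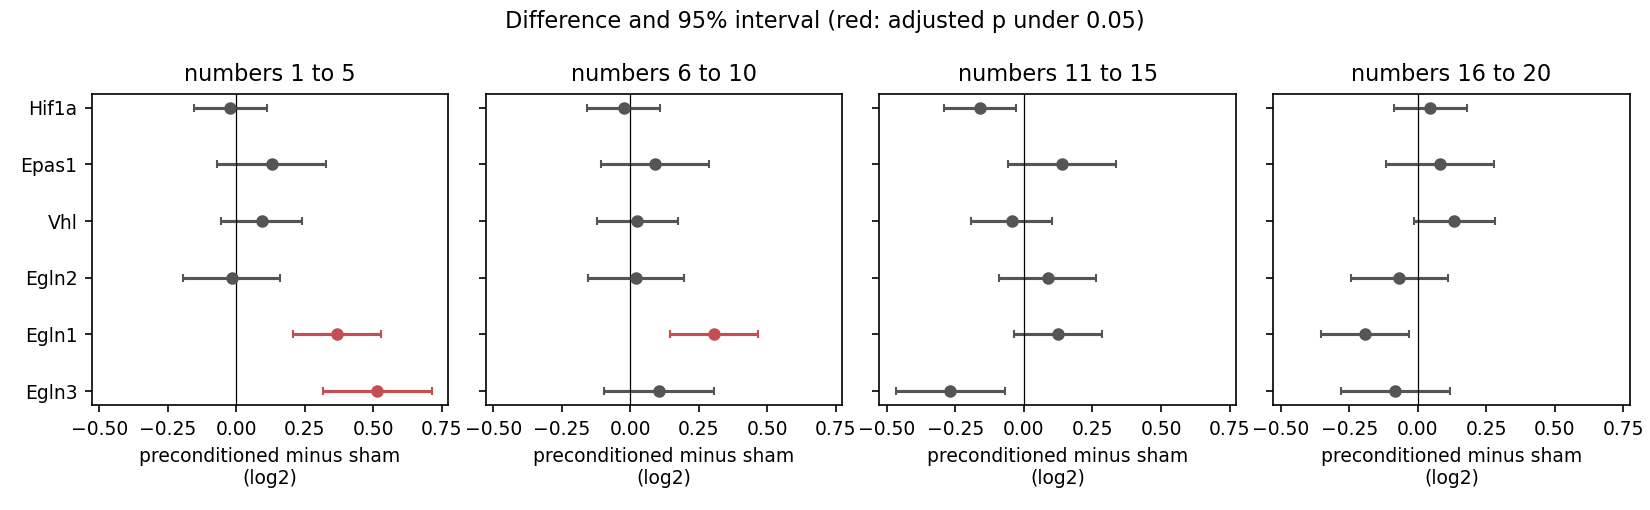
Difference between preconditioned and sham arrays in log2 units (x axis) for the 6 measured members in each run of sample numbers. Points are limma estimates and bars their 95% intervals, with red for an adjusted p under 0.05, which holds for Egln1 and Egln3 in numbers 1 to 5 and for Egln1 in numbers 6 to 10.

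In the sham arrays Hif1a was lower and Epas1 higher in the last run than in the first. The F-test over all sham runs, given below, called neither gene. Hif1a in sham cortex, given by array above, was 0.21 lower on the log2 scale in numbers 16 to 20 than in numbers 1 to 5 (difference -0.21 ± 0.07, SE, n = 5 per run, limma adjusted p = 0.029), or 0.87-fold. Sham array 5 lay within the values of the last run, and the other 4 arrays of numbers 1 to 5 lay above all of them. The call ended with median centring of the arrays (-0.19, limma adjusted p = 0.14) and without sham array 1, 2, 3, 4, 17 or 20 (adjusted p of up to 0.087).

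Epas1 had 480.0, 699.0, 601.3, 527.4 and 606.8 on the sham arrays of numbers 16 to 20, against 461.0, 453.1, 481.4, 488.6 and 464.8 on those of numbers 1 to 5. The last run was both higher and more scattered, and 4 of its 5 arrays lay above every array of the first. The rise was 0.30 ± 0.10 (limma adjusted p = 0.033), or 1.23-fold, and the dimmer probe set rose by 0.53 ± 0.18 (0.036). The call of the brighter one ended without a filter (limma adjusted p = 0.067) and without sham array 1, 2, 5, 17, 18 or 20 (adjusted p of up to 0.13).

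Of the 6 members 2 were therefore called, 1 higher and 1 lower, against 6.94% of all probe sets higher and 7.88% lower, 14.8% in all. Vhl differed by -0.17 ± 0.07 (limma adjusted p = 0.12). It had 295.8, 276.1, 286.0, 268.3 and 280.7 on the sham arrays of the last run. On those of the first it had 323.5, 317.1, 306.9, 319.3 and 312.7. The 2 runs did not overlap, but no share of all probe sets is given for such a gap. Egln1, Egln2 and Egln3 differed by 0.11 ± 0.08, 0.09 ± 0.09 and 0.11 ± 0.10 and were not called. Arnt, fitted without the filter, differed by -0.59 ± 0.20 (limma adjusted p = 0.069).

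In the F-test over the 4 sham runs, limma called 0 of 6 members, against 13.7% of all probe sets called. At an unadjusted p under 0.05 there were 4 of 6 members, against 5447 of 18625 probe sets. The adjusted p was 0.067 for Hif1a, 0.086 for Epas1, 0.14 for Vhl and 0.16 for Egln1. Hif1a passed without preconditioned arrays 5 and 6 (limma adjusted p = 0.022), and also without sham array 5 or preconditioned array 6 (adjusted p of 0.015 or more). Epas1 passed without sham array 6, preconditioned array 12 or sham array 16 (adjusted p of 0.028 or more). Between neighbouring sham runs limma called 0 of 6 members, against 1.26%, 0.29% and 0.65% of all probe sets called. At an unadjusted p under 0.05 limma had 0, 0 and 4 of 6 members, against 2807, 1522 and 3010 of 18625 probe sets. The 4 were Hif1a (-0.17), Epas1 (0.24), Egln1 (0.18) and Vhl (-0.16) between numbers 16 to 20 and 11 to 15. The preconditioned arrays showed the same signs between the last and the first run, -0.14 ± 0.07 for Hif1a (limma adjusted p = 0.14) and 0.25 ± 0.10 for Epas1 (0.066). The Epas1 value passed without preconditioned array 3, 12 or 16 (limma adjusted p of 0.039 or more).

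**Figure D3:**
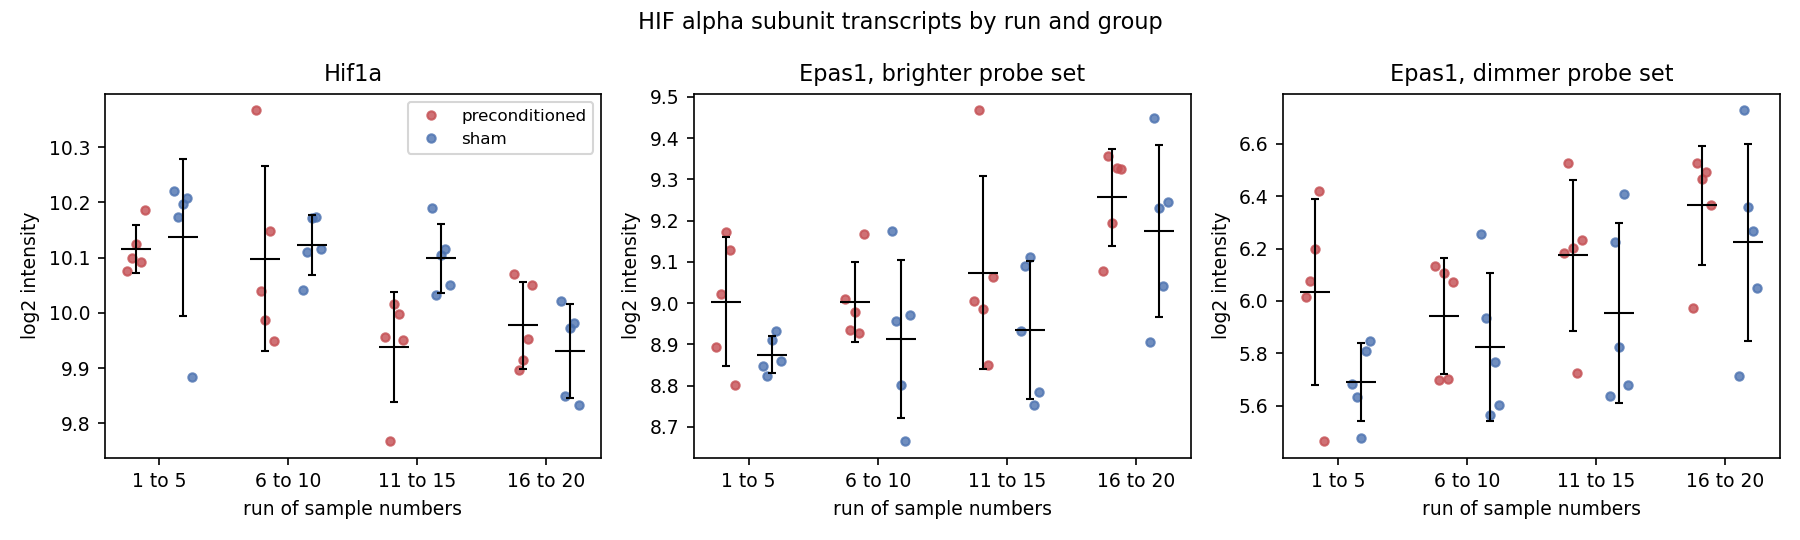
Log2 intensity of Hif1a and of the brighter and dimmer Epas1 probe sets by run of sample numbers, with preconditioned arrays in red on the left and sham arrays in blue on the right. Lines are means of 5 arrays and bars 1 SD, and in the sham arrays Hif1a is 0.21 lower and Epas1 0.30 higher (brighter probe set) in numbers 16 to 20 than in numbers 1 to 5.

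Markers of several cell types differed over the same sham runs. Between numbers 16 to 20 and 1 to 5 of the sham arrays, 5 of 8 measured astrocyte markers, 4 of 6 of oligodendrocytes and 4 of 6 of microglia and macrophages were higher and 0 were lower (limma adjusted p under 0.05). Among 9 neuronal markers 4 were higher and 1 was lower, and 2 of 7 markers of striatum, hippocampus and thalamus were higher. Of 11 endothelial and mural, 3 choroid plexus and 2 blood markers limma called 0, with 1, 0 and 0 at an unadjusted p under 0.05. The mean log2 level of the astrocyte markers spanned 9.32 to 9.72 in the last sham run, against 8.96 to 9.15 in the first. For oligodendrocyte markers it spanned 8.00 to 8.68 in the last sham run, against 7.75 to 8.00 in the first. For endothelial and mural markers it spanned 6.80 to 6.94 in the last, against 6.61 to 6.89 in the first. The part of these markers in the levels of Hif1a and Epas1 was not tested.

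Beside the rise of Egln1 and Egln3 in numbers 1 to 5, 4 of 11 endothelial and mural markers were higher in preconditioned than in sham arrays (Pecam1, Flt1, Kdr and Vwf) and 0 lower. Of all probe sets 1.23% were higher and 1.15% lower. Flt1 also stands in the list of HIF targets used below. The mean log2 level of the 11 markers spanned 6.90 to 7.06 on the preconditioned and 6.61 to 6.89 on the sham arrays. In numbers 6 to 10, 2 of the 11 were higher (Kdr and Vwf) and 1 lower (Tek), against 1.1% and 1.12% of all probe sets. Their mean levels there were 6.79 to 7.07 on the preconditioned and 6.70 to 6.86 on the sham arrays. Of 8 astrocyte markers 2 were higher in numbers 6 to 10 (Gfap and Aldoc, itself a known HIF target), and Mrc1, a macrophage receptor, was the 1 of 6 markers of microglia and macrophages that was higher. Of 6 oligodendrocyte markers 1, Pdgfra, which marks their precursors, was higher in both runs, and of 7 markers of striatum, hippocampus and thalamus 1, Prox1, was higher in numbers 1 to 5. Of 9 neuronal, 3 choroid plexus and 2 blood markers limma called 0 in either run. At an unadjusted p under 0.05 there were 0, 2 and 1 of these in numbers 1 to 5 and 0, 1 and 1 in numbers 6 to 10. Their part in the rise of the feedback enzymes was not tested.

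Other genes that HIF is known to induce rose in numbers 1 to 5, where both feedback enzymes were called, and in numbers 6 to 10, where Egln1 was. Of 54 such targets listed without the members, 41 were measured. In numbers 1 to 5, 24 of them rose and in numbers 6 to 10, 16 rose. Of all probe sets 1.23% and 1.1% were called higher in those runs. In either later run 0 of the 41 targets were called, and 0 fell in any run. At an unadjusted p under 0.05 limma had 16 and 1 of the 41 in the later runs, against 1835 and 952 of 18625 probe sets. The median difference of the 41 targets was 0.36, 0.31, 0.07 and 0.01 from the first to the last run. For all named genes it was -0.03, -0.03, 0.01 and -0.01. Between sham numbers 16 to 20 and 1 to 5 the targets had a median difference of 0.11, against 0.003 for all named genes. There 4 of the 41 were called higher and 0 lower, against 6.94% and 7.88% of all probe sets. The part of the sham level in the smaller differences was not tested. The 4 targets with the smallest p in numbers 1 to 5 were Ddit4, an inhibitor of mTORC1 (1.56 ± 0.08), Slc2a1, a glucose transporter (1.46 ± 0.08), Vegfa, a vessel growth factor (1.42 ± 0.08), and Kdm3a, a histone demethylase (1.31 ± 0.09).

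The place of the feedback enzymes beside that list varied by run. In numbers 1 to 5, 15 of the 41 targets had a larger difference than Egln3 and 20 a larger one than Egln1. In numbers 6 to 10, 35 had a larger difference than Egln3 and 21 than Egln1. In numbers 11 to 15, 38 of the 41 had a larger difference than Egln3 and 14 than Egln1, and in numbers 16 to 20 it was 33 for Egln3 and 40 for Egln1.

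**Figure D4:**
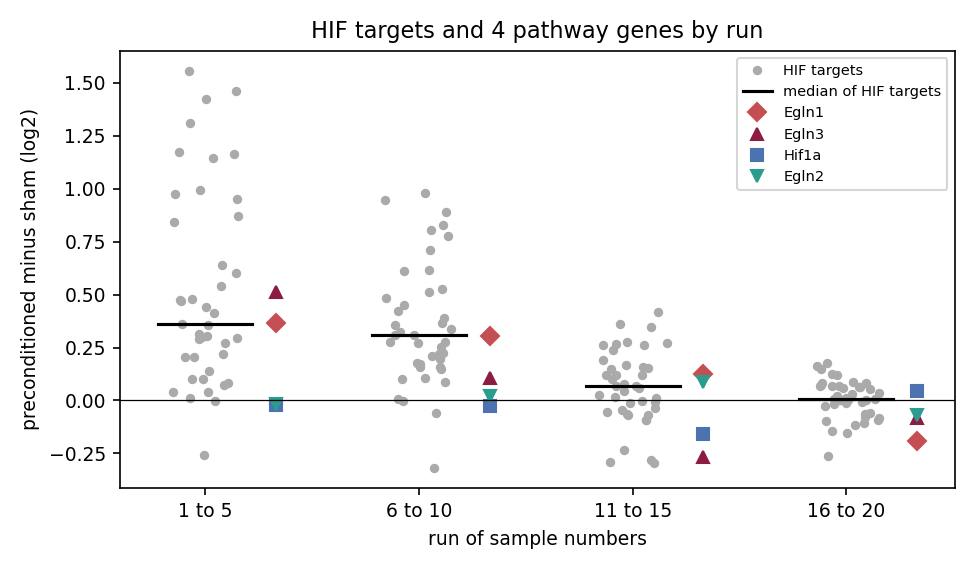
Difference between preconditioned and sham arrays (log2, y axis) in each run for the 41 measured HIF targets (grey points, black line at their median) beside Egln1, Egln3, Hif1a and Egln2. The median of the targets is 0.36, 0.31, 0.07 and 0.01 from the first to the last run, Egln1 stays near it in the first pair of runs, and Hif1a and Egln2 stay near 0 there.

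In the wider HIF machinery, meaning coactivators, chaperones, the Vhl complex and competing partners, at most 2 genes were called for preconditioning in any run. Of 43 such genes 33 were measured. In numbers 1 to 5, 2 rose, against 1.23% of all probe sets called higher. They were Kdm3a (1.31 ± 0.09) and Bhlhe40, a transcriptional repressor (1.14 ± 0.19), both of which also stand in the target list. In numbers 6 to 10 only Kdm3a rose (0.51 ± 0.09), against 1.1% of all probe sets called higher. In numbers 11 to 15 and 16 to 20 limma called 0, with 4 and 1 at an unadjusted p under 0.05. Of all probe sets 0.0698% and 0% were called in those runs. The list's median difference was 0.01, -0.01, 0.00 and -0.04 in the 4 runs.

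Across the sham runs the counts of the machinery stood near those of the whole array. Between numbers 16 to 20 and 1 to 5 of the sham arrays, 3 of the 33 rose and 4 fell, against 6.94% of all probe sets higher and 7.88% lower, so the genes named next do not set the list apart. Bhlhe41, a repressor related to Bhlhe40, rose by 0.47 ± 0.14 and Fkbp8, a membrane-bound co-chaperone, by 0.25 ± 0.07. Those that fell included Tet1, a 5-methylcytosine dioxygenase that needs oxygen as the Egln enzymes do (by 0.56), and the coactivator Crebbp (by 0.32). In the F-test over the 4 sham runs 5 of 33 passed, against 13.7% of all probe sets, namely Tet1 (limma adjusted p = 0.0069), Os9 (0.010), Fkbp8 (0.012), Crebbp (0.037) and Bhlhe41 (0.039).

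Over the 40 arrays the members' log2 levels did not form 1 group. Hif1a and Vhl went together (Pearson r = 0.67, and 0.58 after the mean of each group and run was removed), and Hif1a and Epas1 went apart (-0.62 and -0.45). Egln1 and Egln3 had r = 0.37 over all arrays and -0.24 within groups and runs. These are descriptions over arrays that share a scaling, tissue and runs.

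The named genes whose level most resembled Egln1 over the 40 arrays were Rere (r = 0.73), Kdm3a (0.72) and Zc3h4 (0.72), and within groups and runs the values were 0.34, 0.02 and 0.53. For Egln3 they were Jmjd6 (0.71), Ddit4 (0.71) and Bcl6b (0.71), with 0.34, 0.15 and 0.37 within groups and runs. These genes were picked for their r over all arrays. For Hif1a the nearest were Hmgn3 (0.81), Bhlhe22 (0.80) and Snx6 (0.78), and for Epas1 they were Camk2n1 (0.78), Phyhip (0.78) and Fndc5 (0.75), all with 0.63 or more within groups and runs. Vhl was most like Prmt2 (0.77), Rev3l (0.73) and Arl10 (0.73), and Egln2 was most like Retreg2 (0.61), Naa12 (0.59) and Rexo2 (0.59).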

How the data were processed

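Each of the 40 arrays was deposited as linear intensity values, 1 per probe set. The scanner software and the scaling are not stated in the labels. Every array had a mean intensity of 150.04 to 150.06 with 2% of its probe sets trimmed at each end, which shows a common scaling. From the deposited intensities, log2 values were computed here with a floor of 16. The table held 31099 probe sets, and 57 controls were left out. Probe sets whose mean log2 value reached the 40th percentile were kept. Genes were named from the platform annotation, and the brightest kept probe set stood for a gene. Promoter windows came from a RefSeq table of assembly GRCr8.

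All tests came from limma 3.58.1 in R 4.3.3 (lmFit, eBayes with a mean trend), two-sided, with Benjamini-Hochberg adjustment over all 18625 kept probe sets and a threshold of 0.05. The 4 runs, the F-tests and the sham contrasts came from 1 fit of 8 group means, and the comparison over all arrays from a fit of 2 groups. The fits were tested on simulated data. The members, the gene lists and the tests were chosen with earlier results of these data known. The rule for named genes took the 8 members, up to 8 called pathway partners, the 4 HIF targets with the smallest p in numbers 1 to 5, and 3 genes most correlated with each member. Contrasts of the effect between neighbouring runs, and of preconditioned numbers 16 to 20 against 1 to 5, were added after the values had been seen.

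Arrays with the same number in both groups deviated together in all 20 pairs (r from 0.03 to 0.39, median 0.16, 15 over 0.1). No values for arrays of unlike number are given beside these. The labels do not say that the numbers pair samples, so the main fits used no pairing. Tried as well were quantile normalization and centring on array medians, log2 with a pseudocount of 32 or a floor of 1, a filter at the 60th percentile or none, eBayes without the trend, the mean over a gene's probe sets, the sample number as a block, the run as a covariate, single runs or sham arrays alone, each run left out, and each array left out.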

Additional observations from a re-analysis of the deposited data

Results flagged for a closer look

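Among the 48 groups of 5 arrays tested for a stray array, 3 held one whose gap to its nearest neighbour, as a share of the group's range, was above 0.71, and chance flags about 1 group in 20. For Hif1a, preconditioned array 12 had an intensity of 872, the lowest of its group in numbers 11 to 15, where the other 4 arrays had 990.3 to 1036. Sham array 5 had 944 for Hif1a, the lowest in numbers 1 to 5, where the others had 1155 to 1193. For Egln1, preconditioned array 7 had 227, the lowest in numbers 6 to 10, where the others had 257 to 265.

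For 2 members the preconditioning effect differed between the runs by a test of the difference itself. The limma adjusted p of the interaction was 0.0126 for Egln1, with differences of 0.37, 0.31, 0.12 and -0.19 from the first to the last run, and 0.0050 for Egln3, with 0.51, 0.11, -0.27 and -0.08.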

How the results depend on the processing

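The directions of all called results were kept under every alternative run, and of 4512 values of members under alternatives, 66 changed sign, all of them differences that were called under neither setting. In numbers 1 to 5 the count of members called was 2 and became 0 with the 10 arrays of the run alone. In numbers 6 to 10 it was 1 (Egln1) and became 0 with the 10 arrays of the run alone (limma adjusted p = 0.10), 0 without preconditioned arrays 5 and 6, and 0 to 1 with single arrays left out. Over all arrays it was 0 and became 1 (Egln1) without numbers 16 to 20. For the F-test over the sham runs it was 0 and became 1 (Hif1a) with quantile normalization, without preconditioned arrays 5 and 6 and with the 20 sham arrays alone, and 0 to 1 with single arrays left out. For sham numbers 16 to 20 against 1 to 5 it was 2 and became 1 with median centring, 1 without a filter, and 0 to 2 with single arrays left out. The cause of these changes was not tested. With the sample number as a replicate block, the limma adjusted p for Egln1 was 0.012 in numbers 1 to 5 and 0.033 in 6 to 10, for Egln3 0.0032 in numbers 1 to 5, and for the interaction 0.030 (Egln1) and 0.013 (Egln3), and no call of a member in these tests ended. The number of arrays limits the precision, and Arnt, with a mean intensity of 30.5, is limited by its dim signal.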
